A study of Mus musculus with 33 samples.

Results

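Sox2 ChIP-seq summits of mouse embryonic stem cells (mESCs), wild type (WT) or with a knockout of Uhrf1 (KO), were matched by position. Both samples carried a Sox2 list, and they are 2 of the 33 samples of the series, 25 of which had a list of enriched regions. The WT library came from undifferentiated E14 mESCs and the Uhrf1 KO library from undifferentiated Uhrf1 KO E14 mESCs, a line whose Uhrf1 gene is disrupted; both lines were obtained from another laboratory, whether the KO line is 1 clone is not given in the sources used here, and both were grown with LIF on gelatin or on plates coated with mouse embryonic fibroblasts. The same Sox2 antibody was used in both. There was 1 library per genotype, so no difference below could be set against a spread between cultures and no p-value is given. The WT list held 5190 sites and the KO list 20755, together 25945 of the 52441 summits in the 6 factor lists (Sox2, Oct4 and Nanog in both genotypes). Summits of the 2 lists no more than 100 bp apart were called shared sites, and the rest WT-only or KO-only sites. Each site is 1 base, the summit, with a height, the number of reads stacked there.

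Sox2 is an HMG-box transcription factor that holds mESCs in the pluripotent state. It binds a short motif on its own and, together with Oct4, a composite motif in which a Sox element and an octamer element lie side by side, and these composite sites lie in enhancers and promoters of Pou5f1 (which encodes Oct4), Sox2, Nanog and many of their targets. Uhrf1 binds hemimethylated DNA and brings the methyltransferase Dnmt1 to it at replication; the study also linked it to H3K4 methylation through the Setd1a complex. H3K4me3 marks active promoters, H3K27me3 marks genes held silent by polycomb complexes, and H3K9me3 marks heterochromatin.

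Summits of Sox2 in genes of the pluripotency network that held the composite motif (TTGTNATGC) within 50 bp are shown first, because these genes are well known targets of Sox2; they were picked for holding the motif, which 6.05% of shared WT summits and 1.92% of KO-only summits did, and are not typical of their class. The summit is the middle base of each window, 50 bases reach out on either side, all are on the plus strand of mm9, and capitals mark the composite motif, the Sox motif (CATTGT) and the octamer (ATGCAAAT) on either strand. The first 7 were shared, and the last 2, near Klf5 and Utf1, were KO-only.
Pou5f1, shared, chr17:35640960-35641060: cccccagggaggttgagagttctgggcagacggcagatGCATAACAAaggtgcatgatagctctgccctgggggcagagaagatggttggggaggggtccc
Sox2, shared, chr3:34552923-34553023: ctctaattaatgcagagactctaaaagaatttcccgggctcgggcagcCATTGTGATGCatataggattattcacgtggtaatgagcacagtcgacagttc
Nanog, shared, chr6:122657395-122657495: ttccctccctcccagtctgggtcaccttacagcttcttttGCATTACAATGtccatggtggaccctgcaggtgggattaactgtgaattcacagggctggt
Prdm14, shared, chr1:13084826-13084926: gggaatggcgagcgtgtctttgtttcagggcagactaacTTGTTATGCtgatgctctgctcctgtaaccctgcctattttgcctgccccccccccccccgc
Lefty2, shared, chr1:182818909-182819009: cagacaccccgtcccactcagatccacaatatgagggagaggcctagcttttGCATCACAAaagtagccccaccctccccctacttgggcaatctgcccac
Lefty1, shared, chr1:182863966-182864066: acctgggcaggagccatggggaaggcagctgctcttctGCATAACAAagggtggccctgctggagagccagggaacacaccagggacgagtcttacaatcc
Rif1, shared, chr2:51927709-51927809: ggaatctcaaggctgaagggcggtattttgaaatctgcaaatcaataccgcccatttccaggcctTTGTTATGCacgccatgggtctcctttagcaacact
Klf5, KO-only, chr14:99666035-99666135: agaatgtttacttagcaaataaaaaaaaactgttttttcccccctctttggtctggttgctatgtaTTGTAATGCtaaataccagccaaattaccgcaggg
Utf1, KO-only, chr7:147131561-147131661: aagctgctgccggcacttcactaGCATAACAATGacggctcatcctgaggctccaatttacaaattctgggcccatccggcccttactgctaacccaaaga

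In the 7 shared sites the centre of the composite motif lay close to the summit, at -8 bp (Pou5f1), 4 bp (Sox2), -6 bp (Nanog), -7 bp (Prdm14), 6 bp (Lefty2), -8 bp (Lefty1) and 19 bp (Rif1). It lay at 20 bp in the KO-only site of Klf5 and at -23 bp in that of Utf1.

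Of the 5190 WT sites, 3352 were shared (64.6%, Wilson 95% interval 63.3 to 65.9) and 1838 were WT-only. Of the 20755 KO sites, 3352 were shared (16.2%, 15.7 to 16.7) and 17403 were KO-only. Values in brackets after a share or a difference of shares are 95% intervals, by the methods of Wilson and Newcombe respectively, and reflect no more than counting error over sites. The lists differed in length and in their lowest height, 10 reads in WT and 8 in KO. The depth of the libraries was not taken into account here, so a site missing from a list is described as not detected there. Shared sites were tall in both lists, with a median of 26 reads in WT (quartiles 19 and 39) and 39 reads in KO (25 and 62). The WT-only and KO-only sites had the same median of 16 reads, with quartiles of 14 and 21 and of 13 and 22. The share of WT sites that was shared went from 25.9% (23.3 to 28.6) at heights of 10 to 15 reads to 93.0% (91.3 to 94.4) at 37 reads and above. In the KO list it went from 1.76% (1.42 to 2.18) at 8 to 13 reads to 54.8% (53.2 to 56.3) at 31 reads and above. Of the 100 tallest sites, 93 in WT and 95 in KO were shared, and of the 1000 tallest 933 in WT and 833 in KO.

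**Figure D1:**
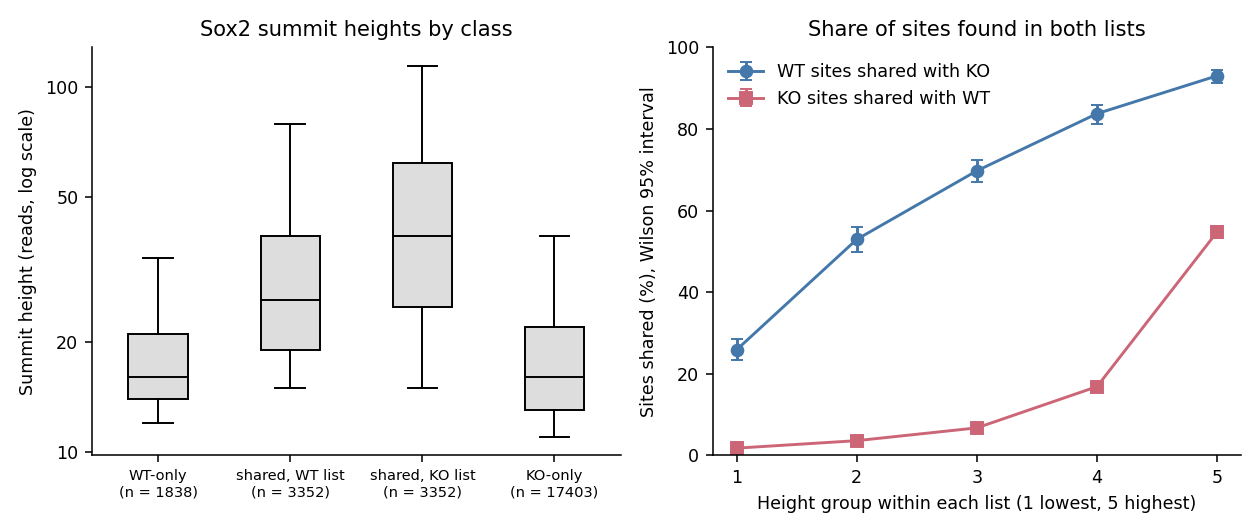
Left, Sox2 summit height in reads on a log scale for WT-only, shared (once with WT and once with KO heights) and KO-only sites; boxes show quartiles and the median, whiskers the 5th and 95th percentiles. Right, the share of sites in both lists by group of height within each list, with Wilson 95% intervals; it goes from 25.9% to 93.0% in WT and from 1.76% to 54.8% in KO.

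All 3352 shared sites paired one to one. The summits of a pair lay a median of 23 bp apart (quartiles 10 and 45), 89 pairs shared the same base and 80.1% lay within 50 bp. The KO summit was the taller one at 2607 pairs (77.8%), the WT summit at 646, and 99 were equal. The median log2 ratio of KO to WT height was 0.49 (quartiles 0.08 and 0.89), a ratio of 1.41. The ratio grew with height from a median of 0.14 in the lowest of 5 groups of pairs to 0.69 in the fourth and 0.63 in the highest. Relative to the median ratio, 257 pairs differed by more than 2-fold (7.67% of pairs), 156 of them with a relatively taller WT summit and the others with a relatively taller KO summit. Without that centring, 611 KO summits were over 2-fold taller and 8 were over 2-fold lower. Across sites the log heights had a Pearson correlation of 0.77 over 3352 pairs, a description of sites that share 2 libraries.

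**Figure D2:**
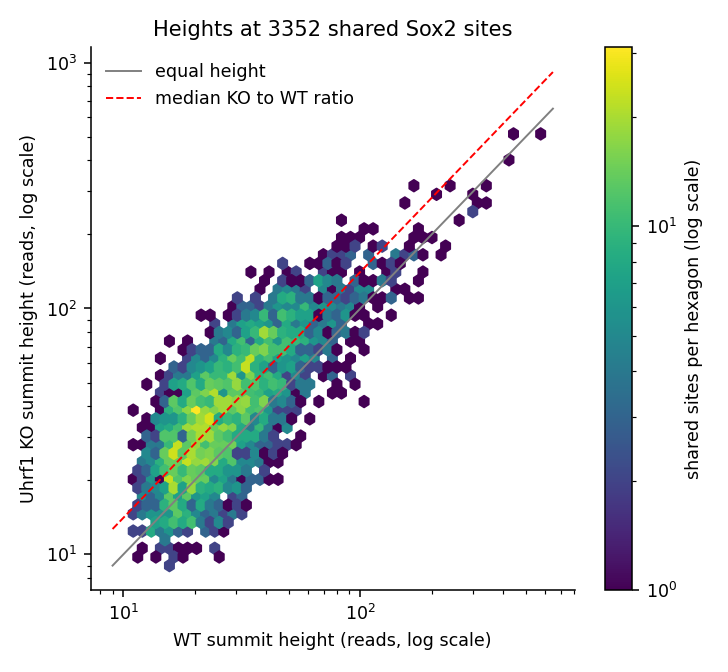
WT height (x axis) and Uhrf1 KO height (y axis) in reads, both on log scales, at the 3352 shared Sox2 sites; colour gives the number of sites per hexagon. Most sites lie above the grey line of equal height, around the dashed red line of the median ratio, 1.41.

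Several of the tallest sites lay in repeated sequence. The aligner kept 1 alignment per read, so reads from several copies of a repeat in the assembly could be placed at 1 of them. In the windows below, the central 31 bases occurred 1 time in the assembly on chromosomes 2, 10, 11 and 17. They occurred 2 times on chromosomes 6 and 15. Where the reads at these sites came from was not tested. These tall sites are shown because their height alone would make them the leading sites of each class. Below are 2 of the 3 tallest shared sites, the 3 tallest WT-only sites and the 3 tallest KO-only sites outside crowded places (5 or more summits of 1 list within 10 kb); capitals would mark a motif, and none of these windows held one.
Tallest shared 1, chr15:74917184-74917284: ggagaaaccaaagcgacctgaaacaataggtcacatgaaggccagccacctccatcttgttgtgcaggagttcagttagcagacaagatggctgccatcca
Tallest shared 2, chr11:108873118-108873218: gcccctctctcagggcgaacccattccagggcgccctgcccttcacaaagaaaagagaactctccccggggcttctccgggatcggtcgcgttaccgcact
Tallest WT-only 1, chr17:39982018-39982118: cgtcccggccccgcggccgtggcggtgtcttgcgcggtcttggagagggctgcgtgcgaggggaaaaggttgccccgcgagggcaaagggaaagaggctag
Tallest WT-only 2, chr6:3150999-3151099: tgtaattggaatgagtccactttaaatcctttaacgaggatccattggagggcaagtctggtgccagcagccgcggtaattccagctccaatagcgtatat
Tallest WT-only 3, chr10:21862344-21862444: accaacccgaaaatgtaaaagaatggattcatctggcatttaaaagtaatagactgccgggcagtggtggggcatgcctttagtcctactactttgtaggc
Tallest KO-only 1, chr17:39982169-39982269: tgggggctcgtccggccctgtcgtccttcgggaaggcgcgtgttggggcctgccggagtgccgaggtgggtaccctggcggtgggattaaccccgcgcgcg
Tallest KO-only 2, chr2:98503998-98504098: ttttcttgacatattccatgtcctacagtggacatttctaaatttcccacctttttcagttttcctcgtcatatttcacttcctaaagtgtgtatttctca
Tallest KO-only 3, chr6:3150891-3150991: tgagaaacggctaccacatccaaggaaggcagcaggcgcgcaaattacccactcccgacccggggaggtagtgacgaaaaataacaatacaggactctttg

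These 2 shared sites, both intergenic, had 577 reads in WT and 513 in KO on chromosome 15, and 417 and 403 on chromosome 11. Their log2 ratios of KO to WT height were -0.17 (exact conditional binomial interval -0.34 to 0.0045) and -0.05 (-0.25 to 0.15), both below the median of 0.49. The window on chromosome 11 reads as large-subunit ribosomal RNA; here and below, ribosomal and satellite sequence was recognised from its letters and position, not from a repeat annotation. The nearest protein-coding starts were those of Ly6c2 at 24880 bp and Axin2 at 91505 bp.

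The tallest WT-only and the tallest KO-only site were 1 place. The WT summit on chromosome 17 (609 reads) and the KO summit there (571 reads) lay 151 bp apart, in the ribosomal RNA gene copy that this assembly holds on chromosome 17. The second WT-only site (280 reads) and the third KO-only site (258 reads) lay 108 bp apart on chromosome 6, in small-subunit ribosomal RNA sequence. The second KO-only site (529 reads) lay within 2 kb of the annotated start of Gm10801 on chromosome 2, in gamma satellite, the repeat of mouse pericentromeres; the nearest WT site was 180594 bp away. The third WT-only site (136 reads), 6235 bp from the start of E030030I06Rik on chromosome 10, had its nearest KO site at 8105 bp. These 2 places gave 2 of the 3 tallest sites in both the WT-only and the KO-only class.

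Such displaced summits were common among WT-only sites. A KO summit lay over 100 and up to 500 bp away at 671 of 1838 WT-only sites (36.5%), and 519 WT-only sites had none within 10 kb. The median distance from a WT-only site to the nearest KO site was 1078 bp, and from a KO-only site to the nearest WT site 98052 bp, with 8630 KO-only sites (49.6%) over 100 kb from any WT site. Just inside the limit, at 81 to 100 bp, 181 WT sites had heights of 12 to 172 reads (median 19); just outside, from there to 120 bp, 161 WT sites had heights of 11 to 280 (median 19). With a limit of 500 bp, 77.5% of WT sites were shared. With both lists cut to 5190 sites by height, 46.9% of either list was shared.

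Among taller pairs (heights summing to at least 66 reads, the median sum), the 3 with the lowest and the 3 with the highest KO to WT ratio are shown next, since they carry the greatest difference in height at sites that both lists hold. Capitals again mark the Sox motif.
Lowest ratio 1, Fat1 intron, chr8:46056921-46057021: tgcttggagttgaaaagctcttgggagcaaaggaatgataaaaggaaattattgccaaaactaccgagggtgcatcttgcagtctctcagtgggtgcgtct
Lowest ratio 2, Slc7a7 promoter, chr14:55034593-55034693: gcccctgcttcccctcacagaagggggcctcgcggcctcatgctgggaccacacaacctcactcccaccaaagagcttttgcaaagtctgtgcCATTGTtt
Lowest ratio 3, near Immp2l, chr12:41711472-41711572: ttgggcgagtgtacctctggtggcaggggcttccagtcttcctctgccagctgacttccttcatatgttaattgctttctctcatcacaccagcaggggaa
Highest ratio 1, Sdk1 intron, chr5:142606114-142606214: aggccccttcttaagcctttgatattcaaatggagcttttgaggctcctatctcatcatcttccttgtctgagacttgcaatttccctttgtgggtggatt
Highest ratio 2, Ext1 intron, chr15:52998173-52998273: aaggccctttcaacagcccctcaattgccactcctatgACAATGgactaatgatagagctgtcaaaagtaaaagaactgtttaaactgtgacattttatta
Highest ratio 3, Elavl2 intron, chr4:90970964-90971064: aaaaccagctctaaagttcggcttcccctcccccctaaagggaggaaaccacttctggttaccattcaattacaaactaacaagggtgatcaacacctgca

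The site in an intron of Fat1, which encodes a large protocadherin, had 41 reads in KO and over 2-fold as many in WT, a log2 ratio of -1.30 (-1.86 to -0.76). The site within 2 kb of the start of Slc7a7, an amino acid transporter gene, had 46 and 23 reads (-1, -1.79 to -0.25), and the intergenic site 39155 bp from the start of Immp2l had 48 and 25 (-0.94, -1.70 to -0.21). In the other direction, the site in an intron of Sdk1, a cell adhesion gene, had 21 reads in WT and 98 in KO (2.22, 1.53 to 2.98). The intronic sites of Ext1, which encodes a heparan sulphate polymerase, and Elavl2, which encodes an RNA-binding protein of neurons, had 16 and 73 reads (2.19, 1.4 to 3.07) and 14 and 62 reads (2.15, 1.29 to 3.10). These intervals cover the counts of reads in 2 libraries, not the spread between cultures. The central 31 bases of each of the 6 sites occurred 1 time in the assembly, as did those of the ribosomal sites on chromosomes 11 and 17 above, and all 6 had a WT Oct4 summit within 100 bp.

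Chromosome 8 stood apart from the rest. It held 9.63% of WT Sox2 sites and 5.13% of KO sites, whereas it is 4.96% of the placed genome. Of its WT sites 49.8% were shared, against 56.5% on chromosome 11 and 61.1 to 80.5% on the other autosomes and X. The median log2 height ratio at its 249 shared sites was 0.11 (quartiles -0.22 and 0.44), whereas on the other autosomes it was 0.38 to 0.72 and on X 0.28. Chromosome 8 also held 9.62% of WT Nanog sites and 5.84% of KO Nanog sites, but 6.26% of WT Oct4 and 21.9% of KO Oct4 sites. Chromosome 11, 4.59% of the placed genome, held 13.1% of WT and 10.5% of KO Sox2 sites with a median log2 ratio of 0.55. Together chromosomes 8 and 11 held 547 of the 1838 WT-only sites, and the Fat1 site above is on chromosome 8. Without both chromosomes, 67.8% of WT sites were shared and the median log2 ratio was 0.53; this setting was chosen after the data were seen. The number of copies of these chromosomes in either line was not measured here.

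**Figure D3:**
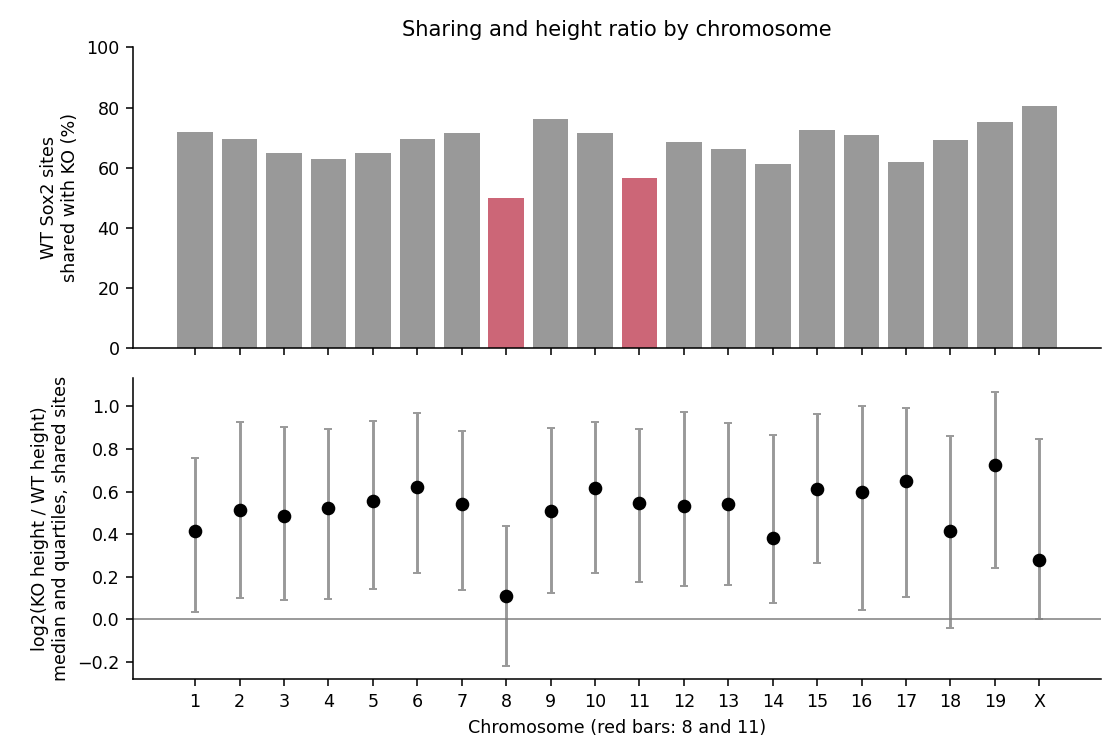
Top, the share of WT Sox2 sites that were shared with the KO list on each chromosome, with chromosomes 8 (49.8%) and 11 (56.5%) in red. Bottom, the median (point) and quartiles (bars) of log2(KO height / WT height) at shared sites; chromosome 8 has the lowest median, 0.11.

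Shared and genotype-specific sites differed in where they lay relative to genes. A site was called promoter when it lay within 2 kb of the annotated start of 1 of 22380 protein-coding genes, then exon, intron or intergenic. Promoters held 13.4% of shared WT sites (448 of 3352), 31.2% of WT-only sites (573 of 1838) and 30.7% of KO-only sites (5346 of 17403), and they cover 3.14% of the placed genome. KO-only sites exceeded shared KO sites by 17.4 percentage points (16.0 to 18.7), WT-only sites exceeded shared WT sites by 17.8 (15.4 to 20.2), and the KO-only and WT-only shares differed by -0.46 points (-2.72 to 1.73). Shared sites were the more intergenic (52.4%, against 41.6% of WT-only and 39.1% of KO-only sites) and the more intronic (32.1%, against 22.3% and 26.1%). However, 55.5% (51.2 to 59.7) of the 519 WT-only sites with no KO site within 10 kb were intergenic. The median distance to a start was 27095 bp for shared WT sites, 10443 bp for WT-only and 12978 bp for KO-only sites. Height moved with these shares: promoter sites had a median of 15 reads in both genotype-specific classes. Within 5 height groups of about equal number of sites, the KO-only promoter difference was 5.15 points (1.64 to 8.66) and the WT-only one 7.06 (3.75 to 10.4). With lists of equal number the KO-only difference was 2.65 (0.97 to 4.32). Within height groups the KO-only minus shared difference for introns was -0.57 points (-3.85 to 2.72) and for intergenic sites -5.04 (-8.69 to -1.4), and the WT-only minus shared difference -4.91 (-7.98 to -1.84) and -3.14 (-6.67 to 0.38). In the lowest group, 8 to 13 reads, 42.3% of KO-only and 37.8% of shared KO sites were at promoters, and in the highest 10.4% and 8.58%.

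Counted by gene, 1078 genes (4.82%) had a WT Sox2 site within 2 kb of the start and 6063 (27.1%) a KO site; 933 had both, 5130 (22.9%) a KO site but no WT site and 145 a WT site but no KO site. Of the 5130 genes, 94.7% had a WT H3K4me3 domain and 89.0% a KO H3K4me3 domain within 2 kb of the start, and of the 933 genes with both 94.4% and 87.8% did. Of the 145 genes with a WT site alone 88.3% and 71.7% did, and of the 16172 genes with no site there 51.1% and 44.8%. 

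The deposited histone domains of each genotype were laid over the sites. WT H3K4me3 domains covered 8.14% of the placed genome and held 55.3% of shared WT sites, 60.9% of WT-only sites and 55.0% of KO-only sites. KO-only and shared sites differed by -0.40 points (-2.23 to 1.44); the difference was 2.89 points (1.07 to 4.69) when domains at or under their list's median score were left out and 1.06 (-0.98 to 3.1) without chromosomes 8 and 11, but -5.27 (-7.98 to -2.56) with lists of equal number and -3.47 (-5.17 to -1.76) with a 500 bp match. WT-only minus shared was 5.54 points (2.73 to 8.32), but -2.18 (-5.42 to 1.04) when summits were matched within 500 bp. WT H3K4me3 domains held 39.3% (35.2 to 43.6) of the 519 WT-only sites with no KO site within 10 kb. Sites inside WT but outside KO H3K4me3 domains were 14.5% of shared, 13.4% of WT-only and 9.43% of KO-only sites. Sites inside KO but outside WT domains were few, 2.45%, 1.85% and 3.61%.

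H3K9me3 separated KO-only from the other sites. WT H3K9me3 domains covered 37.2% of the placed genome and held 37.7% of shared, 37.1% of WT-only and 24.7% of KO-only sites, so that KO-only minus shared KO sites was -13.0 points (-14.8 to -11.2) and KO-only minus WT-only sites -12.4 points (-14.7 to -10.1). Within height groups the first difference was -14.1 points, and it was negative in each of the 5 groups. Without chromosomes 8 and 11 it was -11.9. In KO H3K9me3 domains, which covered 40.9% of the genome the shares were 55.3%, 50.2% and 44.9%, and KO-only minus shared KO sites was -10.4 points over all sites and -2.95 (-6.70 to 0.80) within height groups. Sites in none of the WT domains of the 3 marks were 19.0% of shared, 21.1% of WT-only and 26.0% of KO-only sites.

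WT H3K27me3 domains held 28.6% of shared, 30.3% of WT-only and 23.0% of KO-only sites. Joint H3K4me3 and H3K27me3, the bivalent state, was found in WT at 13.0% of shared, 19.9% of WT-only and 11.8% of KO-only sites, 6.88 points (4.76 to 9.06) more in WT-only than in shared sites. Of the 800 WT sites in that state 54.4% were shared, against 65.3% of the 2174 with H3K4me3 and no H3K27me3 and 73.1% of the 715 with H3K27me3 and no H3K4me3. The KO H3K27me3 list was short, covering 3.17% of the genome against 36.1% in WT, and held 193 of 3352 shared, 184 of 1838 WT-only and 1044 of 17403 KO-only sites.

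Uhrf1 regions, 10 kb windows enriched in WT mESCs that cover 5.14% of the placed genome, held 8.76% of WT-only sites (161 of 1838) and 3.61% of shared WT sites (121 of 3352), a difference of 5.15 points (3.76 to 6.65). KO-only sites lay in them at 3.57%. Of the 282 WT Sox2 sites inside a Uhrf1 region 42.9% (37.3 to 48.7) were shared. The median log2 height ratio at the 121 shared ones was 0.22 against 0.50 elsewhere, with median WT heights of 23 and 27 reads. The WT-only minus shared difference was 4.69 points within height groups and 7.04 without chromosomes 8 and 11. It was 2.06 (1.19 to 3.09) among sites whose central 31 bases occur 1 time in the assembly, a setting chosen after the data were seen. Of sites on placed chromosomes, 19.2% of WT-only, 17.0% of shared WT and 12.7% of KO-only sites had a centre found in several places. At shared sites with such a centre the median log2 height ratio was 0.26, against 0.55 at those with a centre found 1 time. The ratio in Uhrf1 regions was not split by this feature.

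Shared and genotype-specific sites differed most, among the features counted here, in nearby Oct4 and Nanog summits. A WT Oct4 summit lay within 100 bp of 77.1% of shared WT sites, 28.9% of WT-only and 19.3% of KO-only sites. WT Nanog summits did so at 36.9%, 7.78% and 2.52%. Both factors were present in WT at 33.9% of shared sites, 5.98% of WT-only and 1.72% of KO-only sites. For WT Oct4, KO-only minus shared KO sites was -57.3 points (-58.8 to -55.7). Within height groups it was -36.0, and it was negative in each of the 5 groups. Read the other way, 91.2% of the 1245 WT Sox2 sites with both factors were shared (89.5 to 92.6), and 34.3% of the 1937 with neither (32.2 to 36.4); their median heights were 35 and 16 reads.

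In KO, Nanog summits lay within 100 bp of 63.4% of shared WT sites, 13.3% of WT-only and 21.7% of KO-only sites. KO-only sites exceeded WT-only sites by 8.38 points (6.65 to 9.98), and KO-only minus shared KO sites was -42.6 points (-44.3 to -40.8) over all sites and -9.79 within height groups. Among KO-only sites of 31 reads and above, 63.0% had a KO Nanog summit and 52.2% a WT Oct4 summit, and among those of 8 to 13 reads 4.10% and 7.40%. The KO Oct4 list held 576 sites and the WT list 12898, and KO Oct4 summits lay at 6.59% of shared WT, 0.87% of WT-only and 0.25% of KO-only sites. Sites with none of the 4 Oct4 and Nanog lists nearby were 14.5% of shared WT, 65.9% of WT-only and 68.0% of KO-only sites. The Nanog lists held 2390 sites in WT and 10632 in KO, so the KO list was the longer one for Sox2 and Nanog and the shorter one for Oct4, and with Sox2 lists of equal number KO-only minus shared KO sites was -36.9 points (-39.2 to -34.4) for WT Oct4 and -18.2 (-20.7 to -15.7) for KO Nanog; the Oct4 and Nanog lists were not cut.

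**Figure D4:**
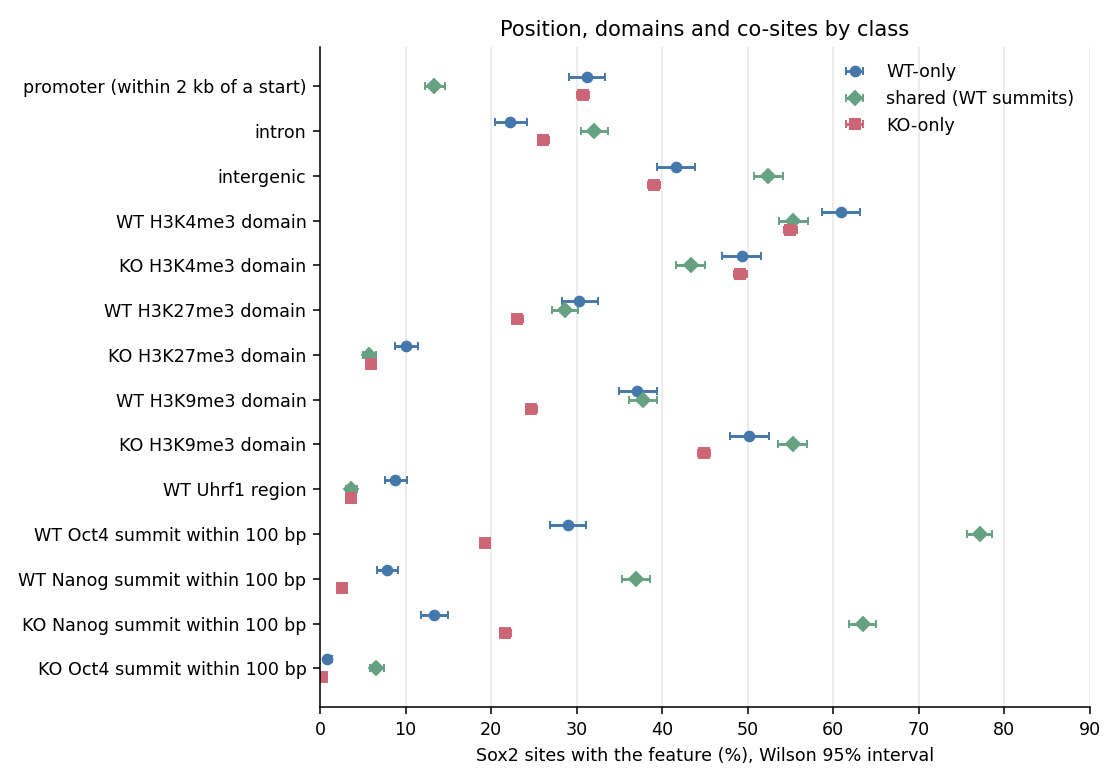
Share of WT-only (circles), shared (diamonds, at WT summits) and KO-only (squares) Sox2 sites at each gene position, in each histone domain or Uhrf1 region, and within 100 bp of an Oct4 or Nanog summit, in percent with Wilson 95% intervals. Shared sites stand apart for WT Oct4 (77.1%, against 28.9% of WT-only and 19.3% of KO-only sites), and KO-only sites for WT H3K9me3 (24.7%).

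The base sequence was read around each summit. The composite motif lay within 50 bp of 6.05% of shared WT summits, 5.51% of shared KO summits, 1.92% of KO-only and 1.39% of WT-only summits, against 0.25% of windows of the same length placed every 10 kb along the genome. In windows 1 kb to either side of the summits the share was 0.37% for shared WT, 0.25% for KO-only and 0.17% for WT-only sites. KO-only minus shared KO summits was -3.59 points (-4.44 to -2.83), and WT-only minus shared WT summits -4.66 points (-5.63 to -3.65). Among KO-only summits it grew with height from 0.64% at 8 to 13 reads to 4.93% at 31 reads and above, where shared KO summits had 5.73%. Of the 227 WT sites with the motif 202 were shared (89.0%, 84.2 to 92.4).

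The Sox motif alone lay within 50 bp of 16.3% of shared WT, 17.2% of shared KO, 12.1% of KO-only and 7.13% of WT-only summits, and of 6.41% of the genome windows. In windows 1 kb away its share was 4.43 to 5.30% in all classes. KO-only summits had it 4.93 points (3.56 to 6.14) more often than WT-only summits, and within height groups KO-only and shared KO summits differed by 0.83 points. WT-only summits lay below shared WT summits in each of the 5 height groups, with a weighted difference of -6.41 points. The motif was most frequent at the summit: in the 20 bp bins on either side of it, 4.25 and 4.52% of shared WT summits and 3.17 and 3.26% of KO-only summits had one, against 1.28 and 2.23% of WT-only summits. The octamer lay near 5.18% of shared WT, 2.84% of KO-only and 1.67% of WT-only summits (genome windows 0.86%), and the E-box CACGTG, taken as a comparison, near 0.81%, 2.32% and 2.17% (0.99%). Each motif was searched on both strands, the composite can overlap the Sox motif (in TTGT) and the octamer (in ATGC), and a match says only that these letters lie in the window.

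**Figure D5:**
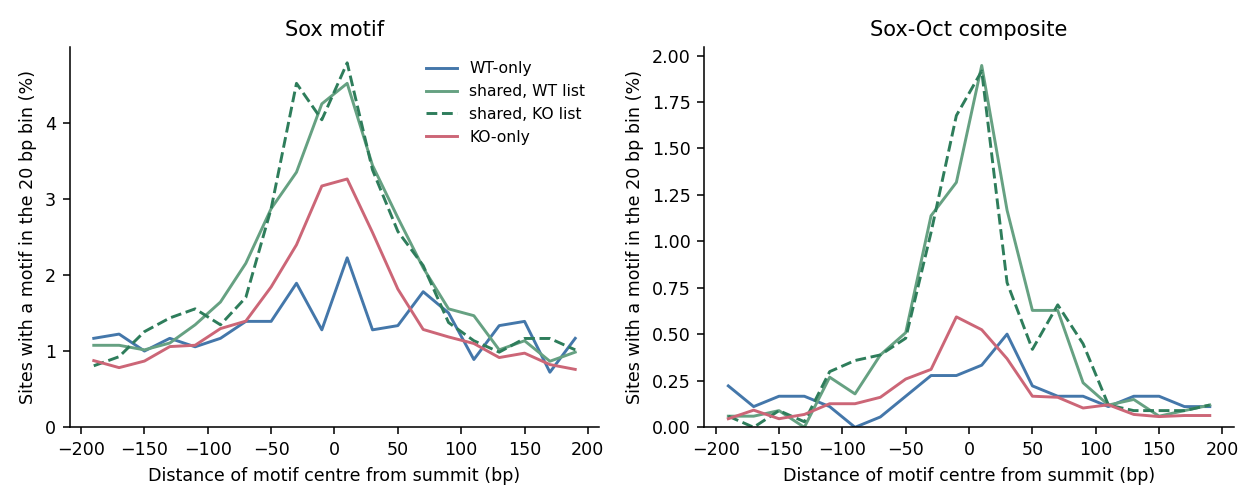
Share of summits (percent) with the centre of a Sox motif (left) or Sox-Oct composite motif (right) in each 20 bp bin by distance from the summit, for the 4 classes. Shared and KO-only summits show a peak at the summit. The WT-only curves are lower there: that of the Sox motif runs from 0.72 to 2.23%, highest at 10 bp, and that of the composite reaches 0.50%, at 30 bp.

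Base composition followed the promoter shares. The median GC content of these windows was 55.4% for WT-only, 54.5% for KO-only and 49.5% for shared sites. The mean number of CpG dinucleotides was 4.50 in WT-only, 4.22 in KO-only and 2.33 in shared windows.

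The genes of the pluripotency core each had shared Sox2 sites, with the taller summit in KO at all 8, against 77.8% of all 3352 shared pairs. These 8 sites were not matched to other pairs by height. At Pou5f1 the site at -1972 bp from the start had 103 reads in WT and 191 in KO, with Oct4 and Nanog summits in both genotypes, and 2 further shared sites at -3516 and -15502 bp had 19 reads in WT and 30 and 32 in KO. At Sox2 the sites at 4046 and 18571 bp had 63 and 36 reads in WT and 97 and 71 in KO. At Nanog the site at -62 bp had 49 and 95 reads, and those at -4419 and -44471 bp 39 and 46 and 23 and 36 reads. The sequences of the sites at -1972 bp (Pou5f1), 4046 bp (Sox2) and -62 bp (Nanog) are given above. Sites at 2906 and 6236 bp of Sox2 (16 and 17 reads) and at 34742 bp of Nanog (11 reads) were WT-only and low, while a KO-only site at -3599 bp of Sox2 had 44 reads and lay at WT Oct4 and Nanog summits.

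Over the 28 genes of the core and of the naive and ground-state network that were matched, 160 different sites lay within 50 kb of a start: 46 shared, 15 WT-only and 99 KO-only. At 42 of the 46 shared sites the KO summit was the taller, with a median log2 ratio of 0.66, against 2607 of 3352 and a median of 0.49 over all shared sites. From the lowest to the highest of 5 height groups of all pairs, the median was 0.14, 0.43, 0.61, 0.69 and 0.63. At all pairs with a WT Oct4 summit it was 0.55. The 46 sites were not matched to other pairs by height or by Oct4, so 0.66 is not shown to be particular to these genes. WT Oct4 summits lay at 41 of the 46 shared and 27 of the 99 KO-only sites (77.1% and 19.3% over all such sites), and KO Nanog summits at 34 and 32 (63.4% and 21.7%). Promoters of any gene held 10 of the 46 and 30 of the 99 (13.4% and 30.7% over all such sites). Of all 22380 genes 23.9% had a WT site and 66.5% a KO site within 50 kb, 43.4% a KO but no WT site and 0.791% a WT but no KO site. Of the 25 matched naive genes 21 had a WT site, 24 a KO site and 3 a KO site only. Those 3 were Esrrb, an orphan nuclear receptor gene with 1 KO-only site of 13 reads at 41768 bp, Dppa4 with 5 KO-only sites of 11 to 27 reads, and Stat3, the effector of LIF, with 3 of 12 to 52 reads, the tallest at -222 bp. Klf4 had no site in either list.

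Several naive genes had KO-only sites beside shared ones. Fgf4, whose product drives exit from the naive state, had 3 shared sites (16 to 21 reads in WT, 24 to 56 in KO) and 11 KO-only sites of 13 to 32 reads, partly near Fgf3 and Fgf15. Socs3, the feedback inhibitor of LIF signalling, had a shared site at -5575 bp with 153 reads in WT and 261 in KO, another with 40 and 65, 10 KO-only sites of 17 to 35 reads and 3 WT-only sites of 16 to 23 reads. Tbx3 had 2 shared sites (47 and 71 reads, 25 and 77 reads), 7 KO-only sites of 13 to 54 reads and a WT-only site of 21 reads at -139 bp, 120 bp from a KO summit of 23 reads. Klf2 had 5 shared sites, the tallest with 70 reads in WT and 94 in KO at -2801 bp and 66 and 125 at 15417 bp. Klf5 had 2 WT-only sites (21 and 26 reads) and 6 KO-only sites (15 to 32 reads); KO summits lay 155 and 504 bp from the WT-only ones.

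Other naive genes followed the same pattern of taller KO summits. Lefty1 and Lefty2, neighbouring Nodal inhibitor genes, shared the sites of 125 and 181 reads, 60 and 99 reads, and 57 and 75 reads in WT and KO. Dppa3 had 52 and 110 reads at -1725 bp, Tdgf1 48 and 87 at -1385 bp, Prdm14 52 and 97 at 42043 bp, Rif1 175 and 207 at -598 bp, Nr5a2 31 and 49 in an intron, Sall4 30 and 42 in an intron, and Tcl1 23 and 52 at -2059 bp. Fbxo15 had 40 and 61 reads at -683 bp, Utf1 17 and 40 at 6094 bp, and Dppa5a 21 and 44 at -7011 bp. The exceptions were Zfp42, with 76 reads in WT and 73 in KO at -13845 bp, Jarid2 with 49 and 42 at -7166 bp, Nr0b1 with 21 and 18 at 1862 bp, and Klf2 with 20 and 18 at 35 bp. Zfp42 and Klf2 lie on chromosome 8. Tall KO-only sites were those of Mycn (71 reads at -1424 bp, 281 bp from a WT-only summit of 59 reads), Sall4 (66 reads at -23290 bp and 55 at -1539 bp), Dppa5a (66 reads at -1374 bp, 690 bp from a WT-only summit of 37 reads) and Utf1 (61 reads at 1923 bp, with the composite motif).

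Formative and primed genes had a WT site in 8 of 12 cases and a KO site in 11, 3 of them a KO site only, against 23.9%, 66.5% and 43.4% of all genes. Otx2 had shared sites of 36 and 91 reads at 4565 bp and 53 and 93 reads at -33467 bp, 4 KO-only sites and a WT-only site. Zic2 had 8 KO-only sites, the tallest with 61 reads at -7299 bp, and its only WT site (19 reads at -446 bp) lay 149 bp from a KO summit of 22 reads. Sox12 had 8 KO-only sites of 13 to 23 reads, and Foxd3 1 shared site (28 and 26 reads) and 5 KO-only sites. Pou3f1 had a WT-only site of 14 reads and 1 KO-only site.

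Among lineage genes, a WT site lay within 50 kb of 13 of 19 neuroectoderm genes, 7 of 20 mesoderm and heart genes, 6 of 12 endoderm genes and 3 of 9 trophoblast genes. A KO site lay near 18, 16, 10 and 7 of them, of which 5, 9, 4 and 4 had no WT site; some of these genes were picked by the study from these samples. Of all genes 23.9% had a WT site and 66.5% a KO site within 50 kb. The background for a KO site only was 43.4% of all genes, against 26.3%, 9 of 20 genes, 33.3% and 44.4% in these lists. Neurog1, a proneural factor gene, had 3 WT and 8 KO sites, Msi1 3 WT sites, all shared, and 8 KO sites, Zic1 1 and 6, and Lhx5 none and 7. Pax6, Hes5, Zic1 and Meis1 each had 1 WT site, which was absent from the KO list within 100 bp; that of Pax6 (31 reads) lay 313 bp and that of Zic1 (13 reads) 126 bp from a KO summit. In mesoderm, T had 2 WT and 4 KO sites, Gsc 2 and 3, Hand1 none and 3, and Gata4 1 and 4 with none shared. In endoderm and trophoblast, Foxa1 had no WT and 5 KO sites, Hnf4a none and 4, Lama1 1 and 4, Id2 1 and 4, Tead4 1 and 3, and Ascl2 none and 2. Gata6, Dab2, Pdx1 and Cdx2 had WT sites with none shared, and those of Gata6 and Dab2 lay 104 and 105 bp from a KO summit. Pdx1 and Cdx2 are neighbours whose sites are the same.

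Of 12 genes of the DNA methylation list 12 had a KO site within 50 kb and 7 a WT site, and of 11 genes of the H3K4 methyltransferase complexes 11 and 5, where 66.5% and 23.9% of all genes did. A KO but no WT site was listed for 41.7% and 54.5% of these lists, against 43.4% of all genes. At Uhrf1 the WT list held no site and the KO list 5, with 23 reads at 873 bp and 37 at -11980 bp; the deletion itself cannot be checked in summit lists. Dnmt1 had 5 KO-only sites of 11 to 39 reads, Dnmt3l 6 of 13 to 32, Tet1 2 shared (27 and 42, 15 and 30 reads) and 6 KO-only, and Trim28 2 shared (57 and 84, 18 and 47 reads) and 6 KO-only. Dnmt3a had a WT-only site of 14 reads and 4 KO-only sites. Setd1a, the H3K4 methyltransferase gene of the study, had 1 KO-only site of 14 reads at 577 bp, Setd1b 2 shared sites (41 and 66, 32 and 56 reads), Wdr82 2 shared (34 and 41, 54 and 75 reads) and 4 KO-only, and Wdr5 and Wbp7 4 KO-only sites each. Of 10 polycomb genes 6 had a WT and 9 a KO site (23.9% and 66.5% of all genes), and 4 a KO but no WT site (43.4% of all genes); Suz12 had 3 and 7, Cbx7 2 and 7, Pcgf6 1 and 5, Ezh1 2 and 4, and Kdm2b a single WT-only site of 15 reads.

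Of 20 genes of the 2-cell-stage list, which the study chose partly from these samples, 12 were matched in the annotation. The 5 matched Zscan4 genes (Zscan4b to Zscan4f), Zfp352, Tdpoz1 and Tdpoz4 had no Sox2 site within 50 kb in either list. These were 8 of the 12 matched genes, and 7321 of all 22380 genes had no site in either list. A WT site lay near 1 of the 12 and a KO site near 3, against 23.9% and 66.5% of all genes. Tdpoz3 had a WT-only site of 18 reads at 32998 bp whose centre occurs 3 times in the assembly, Gm8300 and BB287469 a KO-only site of 19 reads that lies at the promoter of Snw1, and Gm5662 KO-only sites of 15 and 21 reads. These genes lie in clusters of near-identical copies, where a read can be placed in any copy.

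H3K4me3 domains lay within 2 kb of the start at 7 of 8 mESC marker genes in both genotypes, all but Esrrb, whose outermost annotated start was used. Since the cells could be grown on fibroblasts, 12 fibroblast genes were looked at in the same way: 6 carried H3K4me3 in WT and 5 in KO (14130 and 12740 of all 22380 genes did), among them Col1a1 and Twist1, and Postn, Lum, Dcn, Loxl1, Fap and Col3a1 carried none in either. A Sox2 site lay within 50 kb of 2 of these 12 genes in WT and 5 in KO (Col1a1 3, Loxl1 4, Col3a1 2, Twist1 2 and Lum 1 site). Of all genes 23.9% had a WT site and 66.5% a KO site within that distance.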

How the data were processed

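The authors mapped ChIP-seq reads to mm9 with Bowtie2 2.1.0, keeping 1 alignment per read, and called Sox2, Oct4 and Nanog summits with MACS. Whether the input served as control is not given in the sources used here. The deposited signal of a summit is its height, the number of reads at that base, in whole numbers and with no scaling to depth stated. Histone domains were called by the authors with RSEG against input and deposited with 2 values, a signal (mean reads in the bins of the domain) and a score that is larger for longer domains; Uhrf1 regions are 10 kb windows that the authors found enriched over input. Read totals were not used here, so heights of the 2 libraries were compared as deposited.

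Summits were matched with Python 3.11.15 and numpy 2.4.6, intervals were computed with scipy 1.17.1, sequence was read with pysam 0.24.0 from NCBIM37 (mm9), and plots were drawn with matplotlib 3.10.9. The 22380 protein-coding genes were those of the GENCODE annotation of this build, each with its outermost annotated start. The matching and interval code was tested on simulated data. Differences within 5 groups of height were weighted by the number of genotype-specific sites. The groups held about equal numbers of sites, so heights still varied within a group, from 31 to 571 reads in the highest KO group. Groups followed the labels. With 1 library per genotype no replicate test was possible.

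Sites were named by rule: the 3 tallest of each class, and the 3 highest and 3 lowest height ratios among pairs whose heights sum to at least 66 reads, leaving out chromosome 18, unplaced sequence and crowded places; 1 of the tallest shared sites is not reported here. Genes were named from fixed lists: every pluripotency and 2-cell-stage gene, and in other lists those with the most KO sites or with no WT site shared. Other genes given with values (among them Uhrf1, Setd1a and the fibroblast genes) were chosen after their values were seen. The members and lists were chosen with earlier results of these data known. Alternatives were a 500 bp match, lists of equal number, no crowded places, height groups, other promoter, motif and gene distances and domains above the median score; leaving out chromosomes 8 and 11, or sites whose centre is repeated, was added after the data were seen.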

Additional observations from a re-analysis of the deposited data

How the results depend on the processing

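No paired analysis was possible because each genotype had 1 Sox2 library. Depth was not taken into account, so list length and genotype cannot be told apart here. For 13 results 84 alternatives were run, of which 36 moved by less than the interval, 45 by more, and 3 changed sign. Values follow in this order, and the cause of each shift was not tested beyond what its setting removes. Matching within 500 bp gave shared shares of 77.5% (WT) and 19.4% (KO), a median log2 height ratio of 0.44, and KO-only minus shared differences of 12.5 points (promoter), -3.47 (WT H3K4me3), -50.1 (WT Oct4) and -35.7 (KO Nanog), and the WT-only minus shared difference in WT H3K4me3 changed sign to -2.18. Lists of equal number gave 46.9% for both shares, 0.69, 2.65, -5.27, -36.9 and -18.2 in the same order, with -8.93 for WT H3K9me3, -1.75 for the composite motif, 1.45 for WT H3K4me3 in WT-only sites, and 8.26% of genes with a KO but no WT site. Within height groups the KO-only differences were 5.15 (promoter), -36.0 (WT Oct4), -9.79 (KO Nanog) and -2.28 (composite motif), and that of WT H3K4me3 in WT-only sites 1.67. Without chromosomes 8 and 11 the shares were 67.8% and 15.5%, the median ratio 0.53, the KO-only differences 18.9 (promoter), 1.06 (WT H3K4me3, changed sign) and -44.9 (KO Nanog), the WT-only differences 1.38 (WT H3K4me3) and 7.04 (Uhrf1 regions), and 44.9% of genes had a KO but no WT site. With unrepeated centres alone the KO share was 14.9%, the median ratio 0.56, the Uhrf1 difference 2.06, WT Oct4 -60.4 and KO Nanog -40.7. Domains above the median score gave 2.89 (KO-only, changed sign) and 11.1 (WT-only) for WT H3K4me3 and -9.88 for WT H3K9me3. Promoters within 5 kb gave 15.7, and the composite motif within 25 and 100 bp gave -2.53 and -5.12 for KO-only and -2.72 and -5.78 for WT-only sites. Genes counted within 20 kb gave 35.5% with a KO but no WT site, and by the nearest start 31.7%.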
